A study of Homo sapiens with 12 samples.

Results

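The genes described here are 35 genes of glucose transport, glycolysis and the pentose phosphate pathway, taken by gene symbol from the 26475 genes counted in each of 12 RNA-seq libraries. The list goes by gene function and takes no measured value as a criterion, though it was chosen with earlier results of these data known. All 35 genes passed the count filter that kept 15461 genes for testing. The libraries came from SUM159 (SUM159PT), a human triple-negative breast cancer cell line, grown as tumours in female NOD scid gamma mice that were 8 weeks old when the cells were injected. This mouse strain lacks functional lymphocytes but keeps its own myeloid, stromal and muscle cells. The 4 groups of 3 libraries were CD44+CD24-Low cells from mice on cycles of a fasting-mimicking diet (FMD_LO), the same population from mice on standard diet (CTR_LO), CD44+CD24-High cells from the fasting-mimicking diet (FMD_HI) and CD44+CD24-High cells from standard diet (CTR_HI). The diet cycles took 4 consecutive days of each week, and the control samples are labelled untreated. All groups share the cell line, the host strain and the sort with antibodies to human CD44 and CD24. The labels do not say whether a library stands for 1 mouse or a pool, so p-values measure only the spread between these samples. The study's design text takes the sort to part cancer stem cells from differentiated cells.

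Glycolysis breaks glucose down to pyruvate in the cytosol and yields ATP and NADH. Glucose enters through the SLC2A (GLUT) carriers, is trapped by hexokinases, is committed by phosphofructokinase under the control of the PFKFB enzymes, and yields ATP at the phosphoglycerate kinase and pyruvate kinase steps. Lactate dehydrogenases interconvert pyruvate and lactate, which leaves or enters the cell through the monocarboxylate carriers of the SLC16A family. The pentose phosphate pathway branches off at glucose 6-phosphate, makes NADPH and ribose phosphate, and returns carbon to glycolysis through transketolase and transaldolase. Many tumours take up much glucose and release lactate even where oxygen is present, and several of the genes are textbook targets of the hypoxia-inducible factors and of MYC.

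The promoters of 4 members are shown because these genes differ in how they behaved between diets in CD24-low cells: PGK1 and SLC2A1 were higher with the fasting-mimicking diet, LDHB was lower, and LDHA did not pass the test. Each sequence is the 250 bases before the first listed transcript start, 5′ to 3′ on the gene's strand, from RefSeq on GRCh38.p14. PGK1 is at chrX:78103998-78104247 (+ strand), SLC2A1 at chr1:42958869-42959118 (- strand), LDHA at chr11:18394313-18394562 (+ strand) and LDHB at chr12:21657843-21658092 (- strand). Capitals mark ACGTG, a form of the core of the hypoxia response element, read on either strand (CACGT is its reverse complement). The other form, GCGTG, was not searched for and is not marked, so 0 matches of ACGTG does not mean that the core is absent.
PGK1: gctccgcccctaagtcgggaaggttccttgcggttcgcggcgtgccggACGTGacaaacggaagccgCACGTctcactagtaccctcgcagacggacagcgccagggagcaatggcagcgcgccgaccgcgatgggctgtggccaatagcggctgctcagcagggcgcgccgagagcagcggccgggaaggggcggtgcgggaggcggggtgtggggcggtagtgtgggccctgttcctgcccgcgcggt
SLC2A1: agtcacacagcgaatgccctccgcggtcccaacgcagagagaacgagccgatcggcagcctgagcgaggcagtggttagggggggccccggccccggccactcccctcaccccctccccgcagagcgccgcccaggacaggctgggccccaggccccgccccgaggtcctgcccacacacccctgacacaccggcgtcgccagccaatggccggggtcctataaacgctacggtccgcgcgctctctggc
LDHA: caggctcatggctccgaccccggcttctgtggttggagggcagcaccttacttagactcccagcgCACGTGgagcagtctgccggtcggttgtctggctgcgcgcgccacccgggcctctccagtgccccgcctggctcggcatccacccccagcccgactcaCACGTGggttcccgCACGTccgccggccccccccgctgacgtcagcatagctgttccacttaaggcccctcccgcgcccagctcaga
LDHB: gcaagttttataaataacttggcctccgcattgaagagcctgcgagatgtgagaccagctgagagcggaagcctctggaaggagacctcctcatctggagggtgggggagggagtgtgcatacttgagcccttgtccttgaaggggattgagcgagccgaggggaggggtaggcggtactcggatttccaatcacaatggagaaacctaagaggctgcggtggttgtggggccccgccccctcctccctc
PGK1 held 2 matches and LDHA 5, while SLC2A1 and LDHB held 0. The palindrome CACGTG contains ACGTG on both strands and counts as 2 of these matches, so that its 2 copies in LDHA make up 4 of the 5. Of the 32 members with an entry in the promoter table, 11 (34.4%) held ACGTG in the window of the first listed start, against 18.7% of 27305 genes. CACGTG, an E-box, was found in 4 of the 32 (12.5%), against 6.49% of all these genes. The other members called in CD24-low cells (ENO3, PGM1, SLC2A6 and TKT) also held 0 matches of ACGTG. These are matches of letters in a window and not measured binding sites.

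Library totals were 17736610 to 18579816 counts in FMD_LO and 29049144 to 47587142 in the other 9 libraries. The 35 genes together took 1.55% to 2.25% of a library's counts. Levels below are CPM, the counts that edgeR normalises by library size and TMM factor, and mean ± SD is over n = 3. The 8 carcinoma markers summed to 7265 to 8492 CPM in FMD_LO, 7107 to 7908 in CTR_LO, 6833 to 8747 in FMD_HI and 6858 to 8596 in CTR_HI, and CD44 averaged 747, 929.9, 1076 and 992 CPM in the same order. VIM, which stromal cells also express, made up most of that sum (5774 CPM in FMD_LO, 4818 in CTR_LO, 5067 in FMD_HI and 5195 in CTR_HI). Of the 8 markers, 6 had a negative log2 fold change between diets in CD24-low cells: the keratins KRT7 (-0.73 ± 0.25), KRT8 (-0.35 ± 0.13) and KRT18 (-0.42 ± 0.12) were lower without overlap, of which KRT18 passed the test, and KRT19, at 0.694 CPM in FMD_LO and 0.199 CPM in CTR_LO, rose. KRT19 had 36 counts over the FMD_LO libraries and 24 over the CTR_LO libraries. It passed the count filter only through FMD_LO, so that the filter fixed its direction. ESR1 and PGR, the hormone receptors that triple-negative cells lack, together stayed under 1 CPM in each of the 12 libraries. The epithelial marker EPCAM was also near 0, at no more than 0.476 CPM in any group mean. CD24 mRNA did not separate the sorted populations: its log2 fold change, CD24-high over CD24-low, was 0.42 ± 0.43 under the fasting-mimicking diet (adjusted p = 0.584) and -0.18 ± 0.40 under standard diet (adjusted p = 1). Markers of other cell types were higher in FMD_LO. The 15 leukocyte markers summed to 179.6 to 211 CPM in FMD_LO, against 23.5 to 39.4 in CTR_LO, 42.7 to 60.5 in FMD_HI and 30.5 to 47.0 in CTR_HI, and CD52 and TYROBP were at 0 in FMD_LO. The 11 skeletal muscle markers summed to 77.7 to 106, 12 to 18.6, 8.69 to 12.1 and 12 to 14.3 CPM in the same order, nearly all of it ACTA1 in FMD_LO (73.9 ± 16.2 CPM), with MYH4 at 0 there. The 12 stromal markers summed to 47248 to 69907, 20214 to 35783, 14360.1 to 18063 and 16453 to 30610.1 CPM. Of the marker genes tested between FMD_LO and CTR_LO, 8 of 12 leukocyte, 4 of 6 muscle (ENO3 and PYGM among them) and 6 of 12 stromal markers rose. So did 3 of 10 endothelial and 1 of 2 erythroid markers, where 12% of all genes rose. Some of these, such as CD37 (309 counts in FMD_LO and 1 in CTR_LO) and CD53 (82 and 1), passed the count filter through FMD_LO alone. Their direction was fixed by the filter, and listed markers low in every group were left out. These shares therefore do not measure how often the listed markers rose. In FMD_HI against CTR_HI 0 stromal markers passed, and 10 of the 12 had a negative log2 fold change, against a positive one in 49.0% of all genes. The 7 erythroid markers summed to 7.30 to 30.98 CPM in FMD_LO, against 0.497 to 4.64 CPM in CTR_LO. The collagen gene COL1A1 averaged 23668 CPM in FMD_LO, against 12816 CPM in CTR_LO. The 10 immediate early genes gave 0 calls. The part of these markers in the differences reported below was not tested, and in bulk samples fewer cells of a type and less RNA per cell cannot be told apart.

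Per kilobase of exon, the members spanned a wide range of levels. GAPDH, which oxidises glyceraldehyde phosphate, was the most abundant at a mean of 2565 CPM per kb over the 12 libraries, followed by the enolase ENO1 at 836, the pyruvate kinase PKM at 701 and the aldolase ALDOA at 462 CPM per kb. LDHB (358), TPI1 (339.8), LDHA (327) and TKT (242 CPM per kb) came next, and PGK1 ranked 10th at 123 CPM per kb. The lowest were the glucose transporter SLC2A6 at 5.37, the muscle enolase ENO3 at 3.30 and PFKFB2 at 1.08 CPM per kb. Summed over the members, the level was 18218 ± 733 CPM in FMD_LO, 17152 ± 1761 in CTR_LO, 19102 ± 2845 in FMD_HI and 17746 ± 2611 in CTR_HI. The sums overlapped between diets in both populations.

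**Figure D1:**
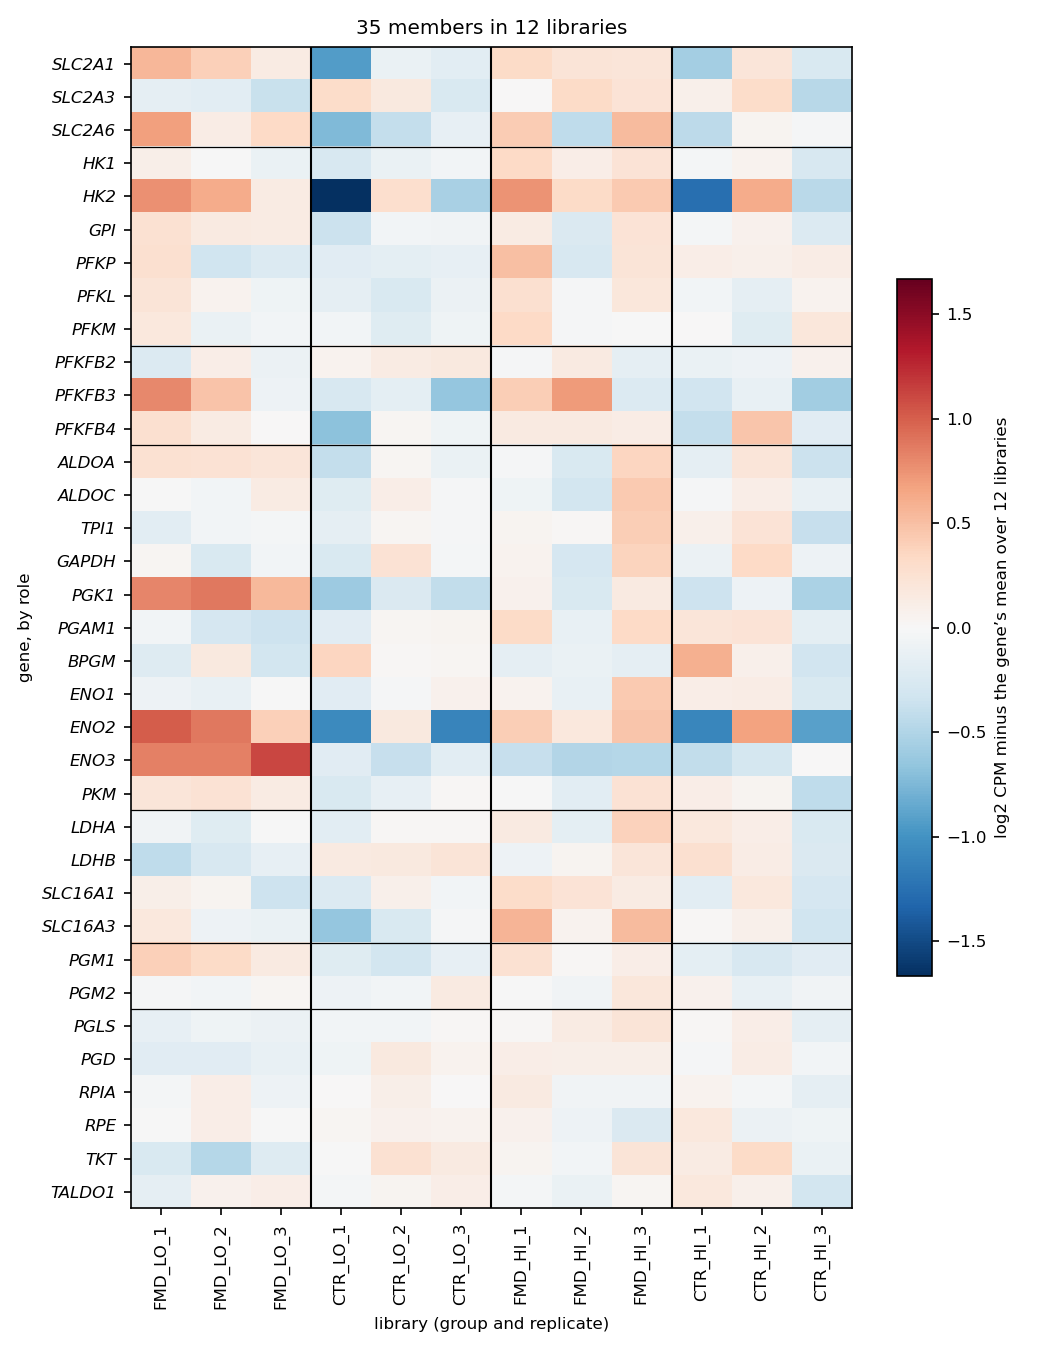
Each cell is a library's log2 CPM of 1 gene minus that gene's mean over the 12 libraries, with genes (rows) grouped by role and libraries (columns) by group and replicate. PGK1 and ENO3 are high in all 3 FMD_LO libraries, while HK2 and ENO2 are low in replicates 1 and 3 of both control groups.

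Between diets in CD24-low cells, 5 of the 35 members rose and 2 fell; with RLE scaling 6 rose and 0 fell. The phosphoglycerate kinase PGK1 and the enolase ENO3 rose by the largest called amounts, to 2.24 and 2.27 times the control level, and the transporters SLC2A1 and SLC2A6 and the phosphoglucomutase PGM1 rose by less. LDHB, the lactate dehydrogenase subunit of heart and other oxidative tissues, and TKT, the transketolase, fell to 0.733 and 0.731 times the control level. Of all genes tested, 16.4% passed the same test in this comparison (12% higher and 4.33% lower), so the 7 of 35 are near that background. At an unadjusted p below 0.05 in edgeR there were 12 members, against 31% of all genes. The log2 fold change was positive in 18 members, against 46.8% of all genes, with a median of 0.06 over the members and -0.03 over all genes tested. On the RefSeq annotation of GRCh38.p14, PGK1 lies at chrX:78104248-78129295 (+ strand), ENO3 at chr17:4948710-4957129 (+ strand), SLC2A1 at chr1:42925353-42958868 (- strand), SLC2A6 at chr9:133471094-133479099 (- strand), PGM1 at chr1:63593411-63660245 (+ strand), LDHB at chr12:21635342-21657842 (- strand) and TKT at chr3:53224712-53256022 (- strand).

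**Figure D2:**
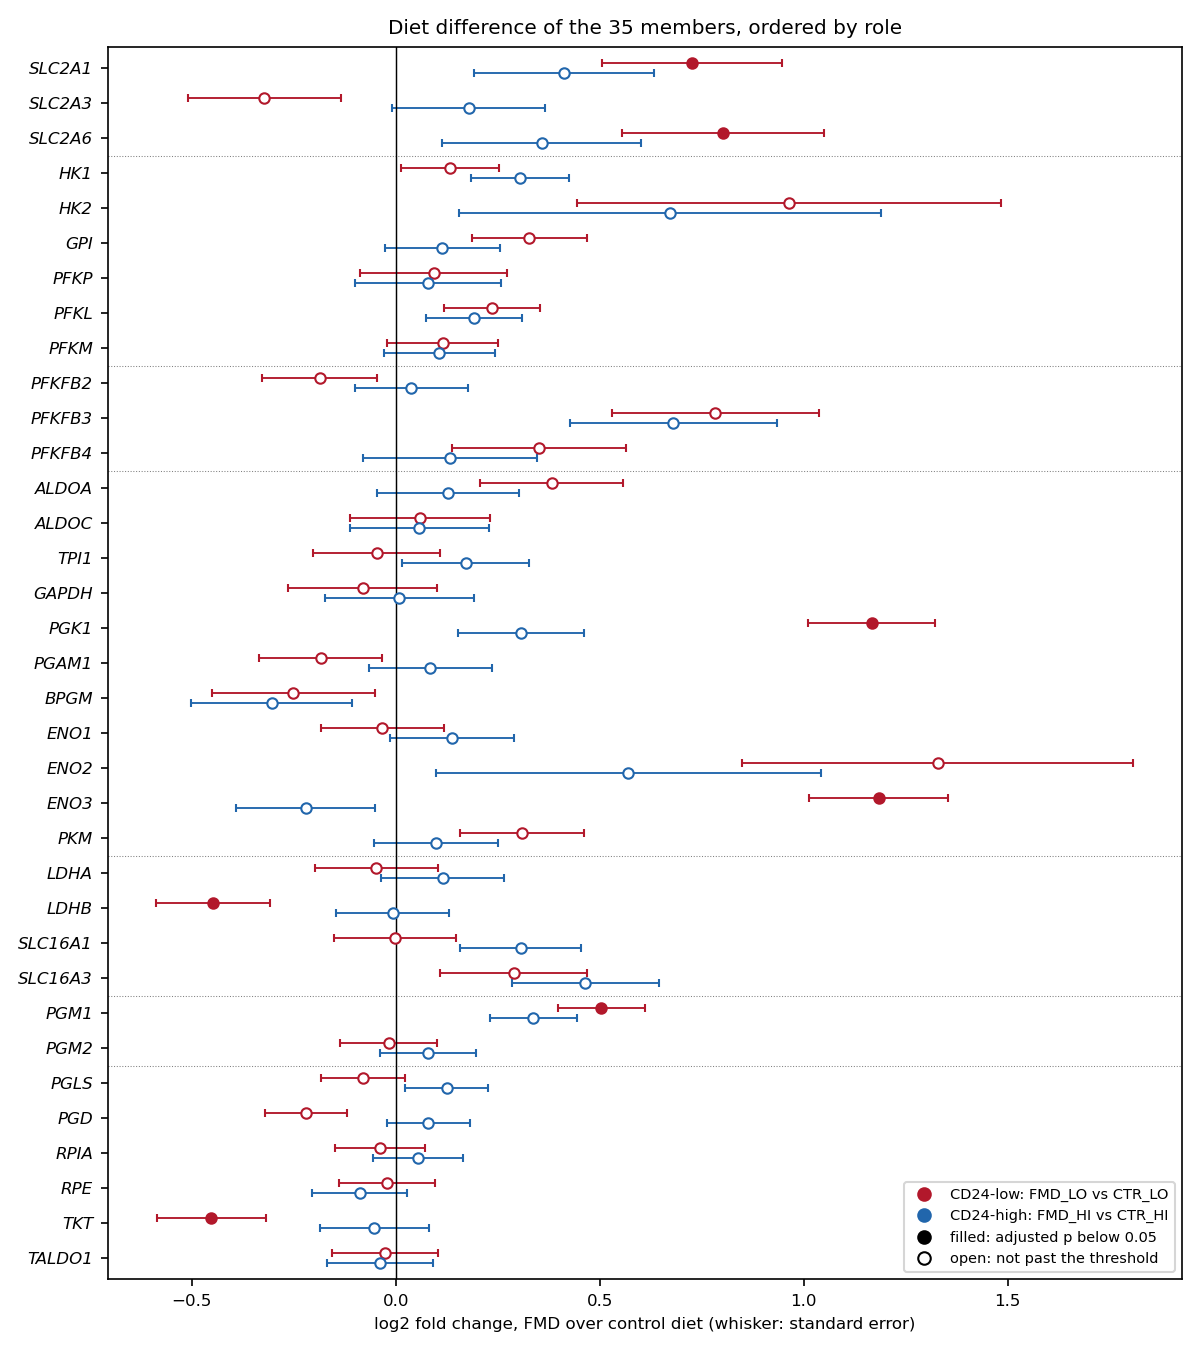
Points are the log2 fold change of each member, fasting-mimicking over standard diet, with its standard error as whisker, in CD24-low (red) and CD24-high cells (blue). Filled points passed the test at an adjusted p below 0.05, which 7 members did in CD24-low cells and 0 in CD24-high cells.

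Of the 3 glucose transporters, 2 rose in CD24-low cells, where 12% of all genes rose. SLC2A1, the main glucose carrier of most tumours, measured 544, 486 and 406 CPM in the FMD_LO libraries, against 195, 344 and 329 CPM in the CTR_LO libraries. Every FMD_LO library was above every CTR_LO library, and the log2 fold change was 0.73 ± 0.22 (SE; adjusted p = 0.0408). SLC2A6, a transporter that is abundant in myeloid cells, had 20.9, 14.2 and 16.3 CPM in FMD_LO, against 7.83, 9.88 and 11.8 CPM in CTR_LO. These groups did not overlap either, with a log2 fold change of 0.80 ± 0.25 (adjusted p = 0.0423). SLC2A3, a high-affinity carrier abundant in neurons, ran the other way, with 504, 494 and 429 CPM in FMD_LO and 692, 625 and 468 CPM in CTR_LO. Its groups overlapped and it did not pass the test, at a log2 fold change of -0.32 ± 0.19 (adjusted p = 0.261), and reads of its near-identical neighbour SLC2A14 (3041 counts over the 12 libraries) may be split with it. The SLC2A1 and SLC2A6 calls held in 4 of 12 fits that each left out 1 library, and without FMD_LO replicate 1 their adjusted p were 0.142 and 0.176. The leukocyte marker sums were also higher in each FMD_LO library than in any CTR_LO library, and their part in the SLC2A6 difference was not tested.

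No member of upper glycolysis passed the test. All 6 fold changes were positive, against 46.8% of all genes tested. HK2, the hexokinase induced in many tumours, measured 184, 168 and 119 CPM in FMD_LO, against 34.3, 132 and 75.0 CPM in CTR_LO. Control replicate 2 lay inside the FMD_LO range and control replicate 1 far below it, and the log2 fold change of 0.96 ± 0.52 had an adjusted p of 0.238. GPI, which isomerises glucose 6-phosphate, had 352, 326 and 325 CPM in FMD_LO and 229.5, 286 and 284 CPM in CTR_LO. The phosphofructokinase of liver type, PFKL, had 161, 143 and 131 CPM in FMD_LO and 124, 116 and 129.6 CPM in CTR_LO. Neither gene overlapped between the groups, but the log2 fold changes of 0.33 ± 0.14 and 0.24 ± 0.12 had adjusted p of 0.133 and 0.191. HK1 averaged 240.2 ± 17.7 CPM in FMD_LO and 219 ± 17.1 CPM in CTR_LO, and the platelet and muscle phosphofructokinases PFKP and PFKM had log2 fold changes of 0.09 ± 0.18 and 0.12 ± 0.14. None of these passed.

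The PFKFB enzymes set the level of a sugar bisphosphate that activates phosphofructokinase and is not the one that aldolase splits. PFKFB3, whose kinase activity dominates, stood at 489, 388 and 265 CPM in FMD_LO, against 234, 251 and 179.7 CPM in CTR_LO. The groups did not overlap, but the log2 fold change of 0.78 ± 0.25 missed the threshold at an adjusted p of 0.0537. It passed with DESeq2 (adjusted p = 0.0104), with RLE scaling (0.0428) and with reads of either strand counted (0.0481), but not with no count filter (0.0836). Of 12 fits that each left out 1 library it passed in 3, and without FMD_LO replicate 1 the adjusted p was 0.192. PFKFB4, a hypoxia-induced relative, measured 80.3, 73.1 and 66.6 CPM in FMD_LO and 41.3, 67.9 and 63.3 CPM in CTR_LO, and PFKFB2 measured 8.43, 10.7 and 9.22 CPM in FMD_LO and 10.3, 10.9 and 11 CPM in CTR_LO. Both overlapped between the diets, with adjusted p of 0.286 and 0.392.

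In lower glycolysis 2 of 11 members rose, which is near the 12% of all genes that rose. The abundant housekeeping enzymes of the same steps did not pass. PGK1, which makes the first ATP of the pathway, measured 1018, 1061 and 841 CPM in FMD_LO, against 378, 488 and 435 CPM in CTR_LO. The lowest FMD_LO library was well above the highest CTR_LO library, and the log2 fold change was 1.17 ± 0.16 (adjusted p = 2.34e-04). ENO3, the muscle enolase, measured 8.61, 8.66 and 10.5 CPM in FMD_LO, against 4.23, 3.70 and 4.28 CPM in CTR_LO. It rests on 485 counts over the 3 FMD_LO libraries and 458 over the 3 CTR_LO libraries, with no overlap in CPM and a log2 fold change of 1.18 ± 0.17 (adjusted p = 4.09e-04). ENO3 is itself 1 of the 11 muscle markers, whose sum was higher in each FMD_LO library than in any other library. Of the other 10 markers on that list, ACTA1 (73.9 CPM in FMD_LO, against 2.45 CPM in CTR_LO), PYGM (2.62 against 0.357) and MYLPF (0.424 against 0.0909) rose. MYLPF passed the count filter through FMD_LO alone, so that its direction was fixed by the filter. TNNT3 (3.17 CPM in FMD_LO, against 6.60 CPM in CTR_LO) and TNNI2 (1.00 against 1.79) did not pass, and CKM, MB, MYH1, MYH2 and MYH4 were too low to test, at no more than 0.197 CPM in FMD_LO. The part of muscle RNA in the ENO3 difference was not tested. PGK2, the testis copy of PGK1, had 13 counts over the 12 libraries. The PGK1 and ENO3 calls held in each of the 12 fits that left out 1 library.

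ENO2, the neuronal enolase, had 92.3, 84.3 and 60.2 CPM in FMD_LO, against 22.0, 51.2 and 21.4 CPM in CTR_LO. This was the largest log2 fold change among the members, 1.33 ± 0.48, with no overlap between the groups and an adjusted p of 0.0880 (0.0495 with DESeq2). ENO2 passed in 2 of 12 fits that left out 1 library, and without CTR_LO replicate 3 its adjusted p was 0.24. ALDOA, which splits fructose bisphosphate, averaged 1288 ± 29.7 CPM in FMD_LO and 988 ± 146 CPM in CTR_LO, and PKM averaged 2627 ± 90.9 CPM in FMD_LO and 2119 ± 196 CPM in CTR_LO. Neither overlapped between the groups, and neither passed (adjusted p = 0.155 and 0.181). GAPDH, ENO1 and TPI1 did not pass, with log2 fold changes of -0.08 ± 0.18, -0.03 ± 0.15 and -0.05 ± 0.16. ALDOC, the mutase PGAM1 and BPGM, which makes bisphosphoglycerate, had log2 fold changes of 0.06 ± 0.17, -0.18 ± 0.15 and -0.25 ± 0.20, none past the threshold. Counts of TPI1 and PGAM1 are uncertain where reads could fall on copies such as TPI1P2 (210 counts) and PGAM4 (49 counts).

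**Figure D3:**
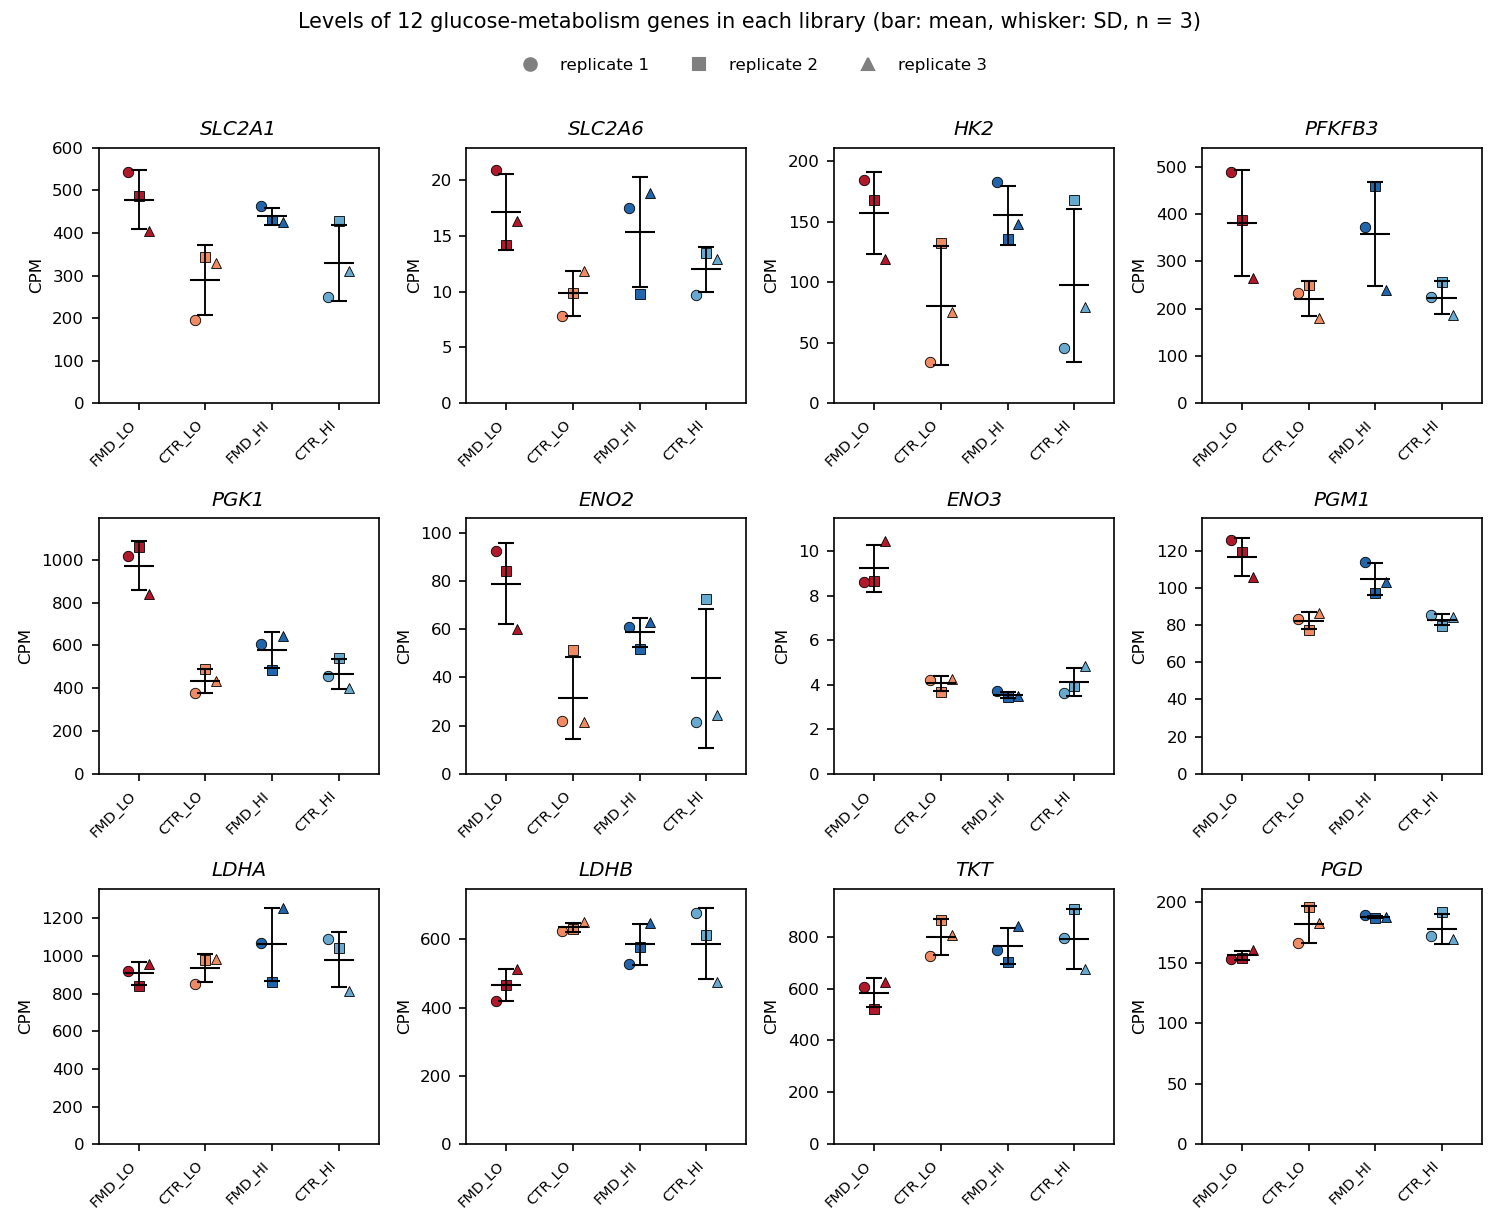
Each panel shows the CPM of 1 gene in the 12 libraries, with the mean as bar and the SD as whisker (n = 3 a group), and symbols give the replicate number. PGK1 and ENO3 are highest in the 3 FMD_LO libraries, the means of LDHB and TKT are lowest there, and HK2 and ENO2 have their highest control value in replicate 2 of both populations.

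Among the lactate genes LDHB fell and LDHA did not pass the test. LDHB measured 419, 465 and 513 CPM in FMD_LO, against 625, 629 and 651 CPM in CTR_LO, and the groups did not overlap. The log2 fold change was -0.45 ± 0.14 (adjusted p = 0.0423). LDHA, the subunit that favours lactate formation and a classic hypoxia target, measured 922, 839 and 958 CPM in FMD_LO and 850.5, 979 and 981 CPM in CTR_LO, with a log2 fold change of -0.05 ± 0.15 (adjusted p = 0.863). The lactate exporter SLC16A3 measured 100.1, 83.6 and 81.8 CPM in FMD_LO and 56.4, 73.7 and 87.2 CPM in CTR_LO, and its groups overlapped (adjusted p = 0.298). SLC16A1, the broadly expressed carrier, averaged 146 ± 23.5 CPM in FMD_LO and 147 ± 16.1 CPM in CTR_LO. The LDHB call is a narrow one. It held in 4 of 12 fits that left out 1 library (0.174 as the highest adjusted p, with FMD_LO replicate 1 left out) and missed the threshold with RLE scaling (0.0611).

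PGM1, which links glycolysis with glycogen by interconverting glucose phosphates, rose. It measured 125, 119 and 106 CPM in FMD_LO, against 83.2, 77.4 and 86.5 CPM in CTR_LO. All 3 FMD_LO libraries lay above the control range, with a log2 fold change of 0.50 ± 0.11 (adjusted p = 0.00570) that passed in each of the 12 fits leaving out 1 library. PGM2, which acts mainly on pentose phosphates, measured 21.1, 20.8 and 21.9 CPM in FMD_LO and 20.1, 20.7 and 23.7 CPM in CTR_LO, and the sign of its log2 fold change of -0.02 ± 0.12 turned with RLE scaling (0.00982).

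Of the 6 pentose phosphate enzymes, all had a negative fold change and 1, TKT, fell. Of all genes tested, 46.8% had a positive fold change and 4.33% fell. TKT, which passes carbon units between sugar phosphates, measured 607, 520.2 and 624 CPM in FMD_LO, against 725, 864 and 806 CPM in CTR_LO. The groups did not overlap, and the log2 fold change was -0.45 ± 0.13 (adjusted p = 0.0354). The call held in 7 of 12 fits that left out 1 library, with an adjusted p of 0.169 without FMD_LO replicate 2, and was 0.0513 with RLE scaling. PGD, the phosphogluconate dehydrogenase of the NADPH-yielding branch, measured 153, 154 and 161 CPM in FMD_LO and 166, 196 and 183 CPM in CTR_LO. PGLS, the lactonase of that branch, measured 55.3, 57.9 and 56.7 CPM in FMD_LO and 59.1, 58.9 and 61.6 CPM in CTR_LO. Neither overlapped between the groups, and neither passed (log2 fold changes -0.22 ± 0.10 and -0.08 ± 0.10, adjusted p = 0.158 and 0.638). RPIA, RPE (whose reads may be split with RPEL1, 84 counts) and the transaldolase TALDO1 did not pass, with log2 fold changes of -0.04 ± 0.11, -0.02 ± 0.12 and -0.03 ± 0.13. Over the 35 members, 11 lay higher without overlap and 4 lower in CD24-low cells, where 19.7% and 17.8% of all genes tested did so.

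Within 6 gene families, the share of 1 gene in the family's counts was also set side by side between diets. SLC2A1 made up 50.9%, 48.9% and 47.7% of the counts of SLC2A1, SLC2A3 and SLC2A6 in FMD_LO, against 21.8%, 35.1% and 40.7% in CTR_LO. LDHB made up 31.2%, 35.7% and 34.9% of the LDHA and LDHB counts in FMD_LO, against 42.4%, 39.1% and 39.9% in CTR_LO. Both shares were apart in CD24-low cells, whereas in CD24-high cells they overlapped, at 40.4% ± 3.58 in FMD_HI and 36.7% ± 6.71 in CTR_HI for SLC2A1 and 35.8% ± 3.80 in FMD_HI and 37.4% ± 0.824 in CTR_HI for LDHB. HK2 made up 39.2% ± 3.77 of the hexokinase counts in FMD_LO and 25.4% ± 11.4 in CTR_LO, with control replicate 2 (37.3%) inside the FMD_LO range. ENO2 made up 3.99% ± 0.932 of the enolase counts in FMD_LO, against 1.59% ± 0.819 in CTR_LO, and ENO1 held nearly all the rest in each group. The other two shares overlapped between diets in CD24-low cells: PFKP made up 28.8% ± 2.77 of the phosphofructokinase counts in FMD_LO and 30.5% ± 1.21 in CTR_LO, and PFKFB3 81.6% ± 3.49 of the PFKFB counts in FMD_LO and 76.2% ± 5.58 in CTR_LO. These shares rest on counts that are not divided by gene length. They were not tested; an exact permutation test of 3 against 3 cannot go below p = 0.1.

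**Figure D4:**
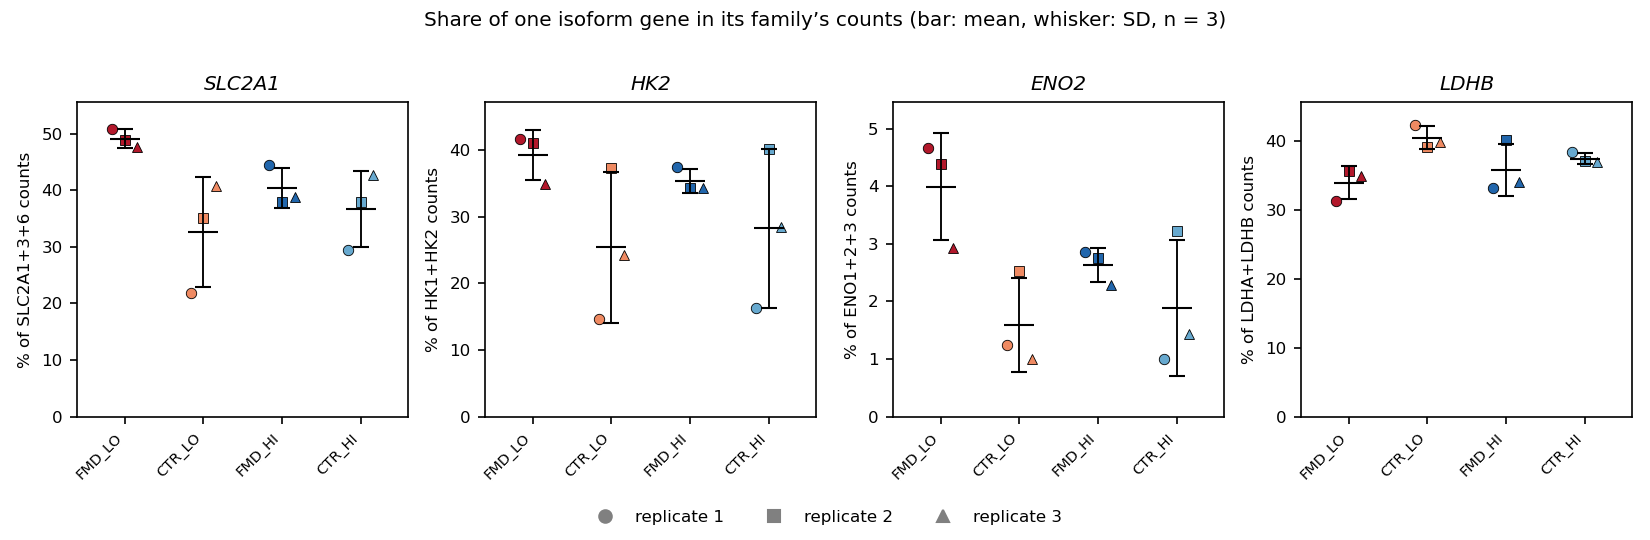
Each panel gives the share of 1 gene in the summed counts of its family, for 4 of the 6 families, in percent, by library, with the mean as bar and the SD as whisker (n = 3). SLC2A1 lies between 47.7% and 50.9% in FMD_LO and at or below 40.7% in CTR_LO, and LDHB between 31.2% and 35.7% in FMD_LO and at or above 39.1% in CTR_LO.

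In CD24-high cells no member passed the test between diets, and neither did any other gene in the edgeR fit (0% of 15461). At an unadjusted p below 0.05 there were 4 members and 1042 genes (6.74%), and DESeq2 called 78 genes with 0 members among them. The 4 members were PGM1, PFKFB3, SLC16A3 and HK1, all higher. PGM1 measured 114, 97.0 and 103 CPM in FMD_HI, against 85.2, 79.6 and 84.0 CPM in CTR_HI, with no overlap and a log2 fold change of 0.34 ± 0.11 (adjusted p = 0.546). PFKFB3 measured 373, 459.7 and 240.0 CPM in FMD_HI and 225, 257 and 188 CPM in CTR_HI, with replicate 3 of FMD_HI inside the control range (log2 fold change 0.68 ± 0.25). SLC16A3 measured 131, 91.8 and 127 CPM in FMD_HI and 89.5, 93.9 and 70.2 CPM in CTR_HI, again with overlap (0.46 ± 0.18). HK1 averaged 282 ± 22.6 CPM in FMD_HI and 228 ± 25.3 CPM in CTR_HI and did not overlap (0.30 ± 0.12). In all, 29 of 35 members had a positive log2 fold change, against 49.0% of all genes tested, with a median of 0.12 over the members. HK1 and PGM1 were the 2 members higher without overlap, against 4.48% of all genes, and 0 were lower without overlap, against 4.72%. Of the members called in CD24-low cells, SLC2A1 measured 462, 429.6 and 425 CPM in FMD_HI and 249.9, 427 and 312 CPM in CTR_HI (0.41 ± 0.22), and SLC2A6 17.5, 9.75 and 18.8 CPM in FMD_HI and 9.67, 13.4 and 12.9 CPM in CTR_HI (0.36 ± 0.24). LDHB measured 528, 579 and 647 CPM in FMD_HI and 677, 611 and 474 CPM in CTR_HI, and TKT 749.9, 700.5 and 840.3 CPM in FMD_HI and 796, 906 and 673 CPM in CTR_HI. Both overlapped, with log2 fold changes of -0.01 ± 0.14 and -0.05 ± 0.13.

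Whether the diet difference itself differed between the populations was tested by the interaction, the log2 fold change between diets in CD24-low cells minus that in CD24-high cells. It passed for PGK1 and ENO3 among the 35 members, and for 4.13% of all genes tested (4.07% positive and 0.0517% negative). PGK1 had a difference between diets of 1.17 ± 0.16 in CD24-low and 0.31 ± 0.15 in CD24-high cells, an interaction of 0.86 ± 0.22 (adjusted p = 0.0432). Its levels in the CD24-high groups were 608, 483 and 642 CPM in FMD_HI and 456, 542 and 402 CPM in CTR_HI, which overlapped. ENO3 had 1.18 ± 0.17 in CD24-low and -0.22 ± 0.17 in CD24-high cells, an interaction of 1.40 ± 0.24 (adjusted p = 0.00534), with 3.72, 3.45 and 3.48 CPM in FMD_HI and 3.63, 3.93 and 4.84 CPM in CTR_HI. The PGK1 interaction passed in 4 of 12 fits that left out 1 library (its adjusted p reached 0.136 when FMD_LO replicate 2 was left out), and that of ENO3 passed in all 12. For the other called members the interaction did not pass: LDHB had -0.44 ± 0.20 (adjusted p = 0.299), TKT -0.40 ± 0.19 (0.343), SLC2A1 0.31 ± 0.31 (0.712), SLC2A6 0.44 ± 0.35 (0.621) and PGM1 0.17 ± 0.15 (0.678). Their diet differences are therefore not shown to differ between the populations.

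Between the populations, 2 members passed under the fasting-mimicking diet and 0 under standard diet. ENO3 and PGK1 were lower in FMD_HI than in FMD_LO, with log2 fold changes of -1.38 ± 0.17 (adjusted p = 1.21e-04) and -0.75 ± 0.16 (adjusted p = 0.00436), where 14% of all genes passed (1.84% higher and 12.2% lower in FMD_HI). This comparison shares the FMD_LO libraries with the one between diets. Same-numbered FMD_HI and FMD_LO libraries deviated together, and with the replicate number as a block 8 of 35 members passed. Of all 15461 genes tested, 4201 passed with the block (1600 higher and 2601 lower in FMD_HI), so the 8 are near that background. Higher in FMD_HI were 6 of the 8: LDHB, PGAM1, PGD, SLC16A1, SLC2A3 and TKT. SLC2A3 had 559, 693 and 652 CPM in FMD_HI, against 504, 494 and 429 CPM in FMD_LO, a log2 fold change of 0.42 ± 0.19 with an adjusted p of 0.177 without and 0.0126 with the block. TKT had 749.9, 700.5 and 840.3 CPM in FMD_HI, against 607, 520.2 and 624 CPM in FMD_LO (0.39 ± 0.13, adjusted p = 0.0767 without and 0.00747 with the block). LDHB (0.33 ± 0.14) and PGD (0.27 ± 0.10) had adjusted p of 0.149 and 0.105 without and 0.0318 and 0.0192 with the block. All 4 lay higher in each FMD_HI library than in any FMD_LO library, as did 8 of 35 members and 13.1% of all genes, while 2 members and 18.3% of genes lay lower. The leukocyte and stromal sums were lower in each FMD_HI library than in any FMD_LO library, and their part in these values was not tested. With the block 4201 genes passed, against 2163 without it.

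Under standard diet edgeR called 0 members and 0 of 15461 genes between CTR_HI and CTR_LO, and 0 members and 91 genes (0.589%) were at an unadjusted p below 0.05. DESeq2 also called 0 genes. The member log2 fold changes lay between -0.16 (PFKFB2) and 0.33 (ENO2). PFKP measured 103, 101 and 104 CPM in CTR_HI, against 83.6, 85.5 and 87.3 CPM in CTR_LO (0.27 ± 0.18), the only member higher without overlap, against 1.47% of all genes, and 0 members were lower without overlap, against 1.96%. PGK1 averaged 467 ± 70.9 CPM in CTR_HI and 434 ± 54.9 CPM in CTR_LO, and LDHB 587 ± 103 CPM in CTR_HI and 635 ± 13.8 CPM in CTR_LO.

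Some members were highest in the same replicate number of both populations. Among the FMD libraries this held for 20 of 35 members, against 58.4% of all genes tested, and among the control libraries for 19 of 35, against 46.4%. In the control libraries it was replicate 2 for 14 of the 19. In HK2 the 3 control replicates had 45.5, 167 and 79.4 CPM in CTR_HI and 34.3, 132 and 75.0 CPM in CTR_LO, and in ENO2 they had 21.6, 72.7 and 24.5 CPM in CTR_HI and 22.0, 51.2 and 21.4 CPM in CTR_LO. Replicate 2 was the highest for both genes in both populations.

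Of 40 other genes of the same pathways, 26 were tested between diets in CD24-low cells, with 4 higher and 4 lower (12% and 4.33% of all genes) and a median log2 fold change of -0.07. Some of the 4 higher ones, PGM5 (24 counts in FMD_LO and 7 in CTR_LO) among them, passed the count filter through FMD_LO alone. The filter fixed their direction. HK3, the hexokinase of myeloid cells, measured 15.4, 19.1 and 8.46 CPM in FMD_LO, against 0.228, 0.537 and 0 CPM in CTR_LO, 0.378, 0.0900 and 0.338 in FMD_HI and 0.208, 0.310 and 0.114 in CTR_HI. SLC2A9, a urate transporter, had 39.9, 30.0 and 34.2 CPM in FMD_LO, against 50.0, 55.6 and 61.3 CPM in CTR_LO (-0.68 ± 0.12, adjusted p = 0.00213), and SLC2A12 1.67 ± 0.0966 CPM in FMD_LO, against 3.27 ± 0.208 CPM in CTR_LO (-0.97 ± 0.22). The HK3 difference was a log2 fold change of 5.84 ± 0.68 (adjusted p = 1.52e-04), in the same 3 libraries in which the leukocyte markers were high. PTPRC, the pan-leukocyte phosphatase, averaged 51.3 CPM in FMD_LO, against 2.94 CPM in CTR_LO, and SPI1, the myeloid transcription factor, 43.6 CPM in FMD_LO, against 1.38 CPM in CTR_LO. Other markers of that list differed from these: CD52 and TYROBP were at 0 in FMD_LO, and AIF1, CD14, CD68 and LAPTM5 did not pass. CD68 averaged 17.7 CPM in FMD_LO and 10.3 CPM in CTR_LO, and LAPTM5 16.5 and 11.8 CPM. The part of leukocyte RNA in the HK3 difference was not tested.

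Of 16 tested genes of glycogen metabolism and gluconeogenesis, 5 rose and 1 fell in CD24-low cells, where 12% of all genes rose and 4.33% fell. UGP2, which makes the glucose donor for glycogen, measured 81.0, 90.2 and 78.6 CPM in FMD_LO, against 44.8, 42.3 and 37.3 CPM in CTR_LO (1.01 ± 0.12, adjusted p = 9.89e-05). The glycogen phosphorylase of liver type, PYGL, measured 47.2, 49.0 and 50.8 CPM in FMD_LO, against 0.560, 2.32 and 0.356 CPM in CTR_LO (5.57 ± 0.66, adjusted p = 2.97e-04). The muscle phosphorylase PYGM, also a muscle marker, averaged 2.62 ± 0.0796 CPM in FMD_LO and 0.357 ± 0.302 CPM in CTR_LO (2.92 ± 0.59). PHKG2, a catalytic subunit of phosphorylase kinase, averaged 27.1 ± 3.16 CPM in FMD_LO and 17.9 ± 1.22 CPM in CTR_LO (0.60 ± 0.13, adjusted p = 0.00699). The list's median log2 fold change was 0.00175. In FMD_HI, UGP2 measured 38.1, 35.8 and 42.1 CPM and PYGL 2.08, 0.480 and 1.46 CPM, against 44.9, 38.3 and 37.2 and 0.387, 0.931 and 0.286 CPM in CTR_HI. The interaction passed for both, at 1.06 ± 0.17 (adjusted p = 0.00366) and 4.22 ± 1.00 (adjusted p = 0.0427), and for HK3 at 5.46 ± 1.13 (adjusted p = 0.0191).

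Side branches showed 2 calls among 13 tested genes, near the 16.4% of all genes that passed. PSPH, the last enzyme of serine synthesis, fell (9.49 CPM in FMD_LO, against 14.6 CPM in CTR_LO, -0.62 ± 0.15). GPD2, the mitochondrial glycerol phosphate dehydrogenase, rose (2.68 CPM in FMD_LO, against 0.903 CPM in CTR_LO, 1.55 ± 0.47). Of 11 regulators of glycolysis and glucose sensing, 1 rose and 0 fell, near the shares of all genes (12% and 4.33%). ARNT, the partner of the hypoxia-inducible factors, rose to 64.3 ± 10.1 CPM in FMD_LO, against 35.9 ± 2.22 CPM in CTR_LO (0.84 ± 0.17, adjusted p = 0.00348). HIF1A measured 648, 531 and 449 CPM in FMD_LO and 314, 462 and 395 CPM in CTR_LO, which overlapped (adjusted p = 0.0584). Of 20 hypoxia targets outside glycolysis, 7 rose and 0 fell in CD24-low cells (12% and 4.33% of all genes), with a median log2 fold change of 0.59, against -0.03 over all genes. KDM3A, a histone demethylase, measured 167, 175 and 155 CPM in FMD_LO, against 59.4, 82.4 and 57.1 CPM in CTR_LO (1.32 ± 0.17, adjusted p = 1.83e-04). P4HA1, a subunit of the collagen prolyl hydroxylase, measured 193, 199.6 and 115 CPM in FMD_LO, against 73.1, 79.0 and 62.3 CPM in CTR_LO (1.24 ± 0.20, adjusted p = 0.00100). The mitophagy receptor BNIP3L and the oxygen sensor EGLN1 also rose (1.04 ± 0.19 and 0.70 ± 0.14). In CD24-high cells 0 of the 20 passed, with a median of 0.39 and 18 of 20 positive, against 49.0% of all genes. The interaction passed for KDM3A (1.10 ± 0.24, adjusted p = 0.0206) and P4HA1 (1.17 ± 0.28, adjusted p = 0.0354) and not for the other 18.

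Between the populations under the fasting-mimicking diet, 1.84% of all genes were called higher and 12.2% lower in FMD_HI. The 26 tested other pathway genes gave 3 higher and 5 lower calls, and the 16 glycogen genes 1 and 4. The 13 side-branch genes gave 1 and 1, the 11 regulators 0 and 1 and the 20 hypoxia targets 0 and 3. The lower calls of these last 3 lists are near the share of all genes. HK3 (-5.71 ± 0.68), PYGL (-5.19 ± 0.64), UGP2 (-1.11 ± 0.12), ARNT (-0.68 ± 0.16), KDM3A (-1.09 ± 0.17) and P4HA1 (-1.18 ± 0.20) were lower in FMD_HI. PCK2, the mitochondrial enzyme that makes phosphoenolpyruvate, had 21.4 CPM in FMD_HI, against 31.7 CPM in FMD_LO (-0.57 ± 0.14, adjusted p = 0.0122). SORD, which oxidises sorbitol to fructose, had 27.6 CPM in FMD_HI, against 19.3 CPM in FMD_LO (0.52 ± 0.14, adjusted p = 0.0199). PGM5, a phosphoglucomutase relative of muscle adhesion sites, was called lower on 2 counts over the FMD_HI libraries, against 24 over the FMD_LO libraries. Under standard diet these lists gave 0 calls between the populations, and in CD24-high cells 0 calls between diets.

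**Figure D5:**
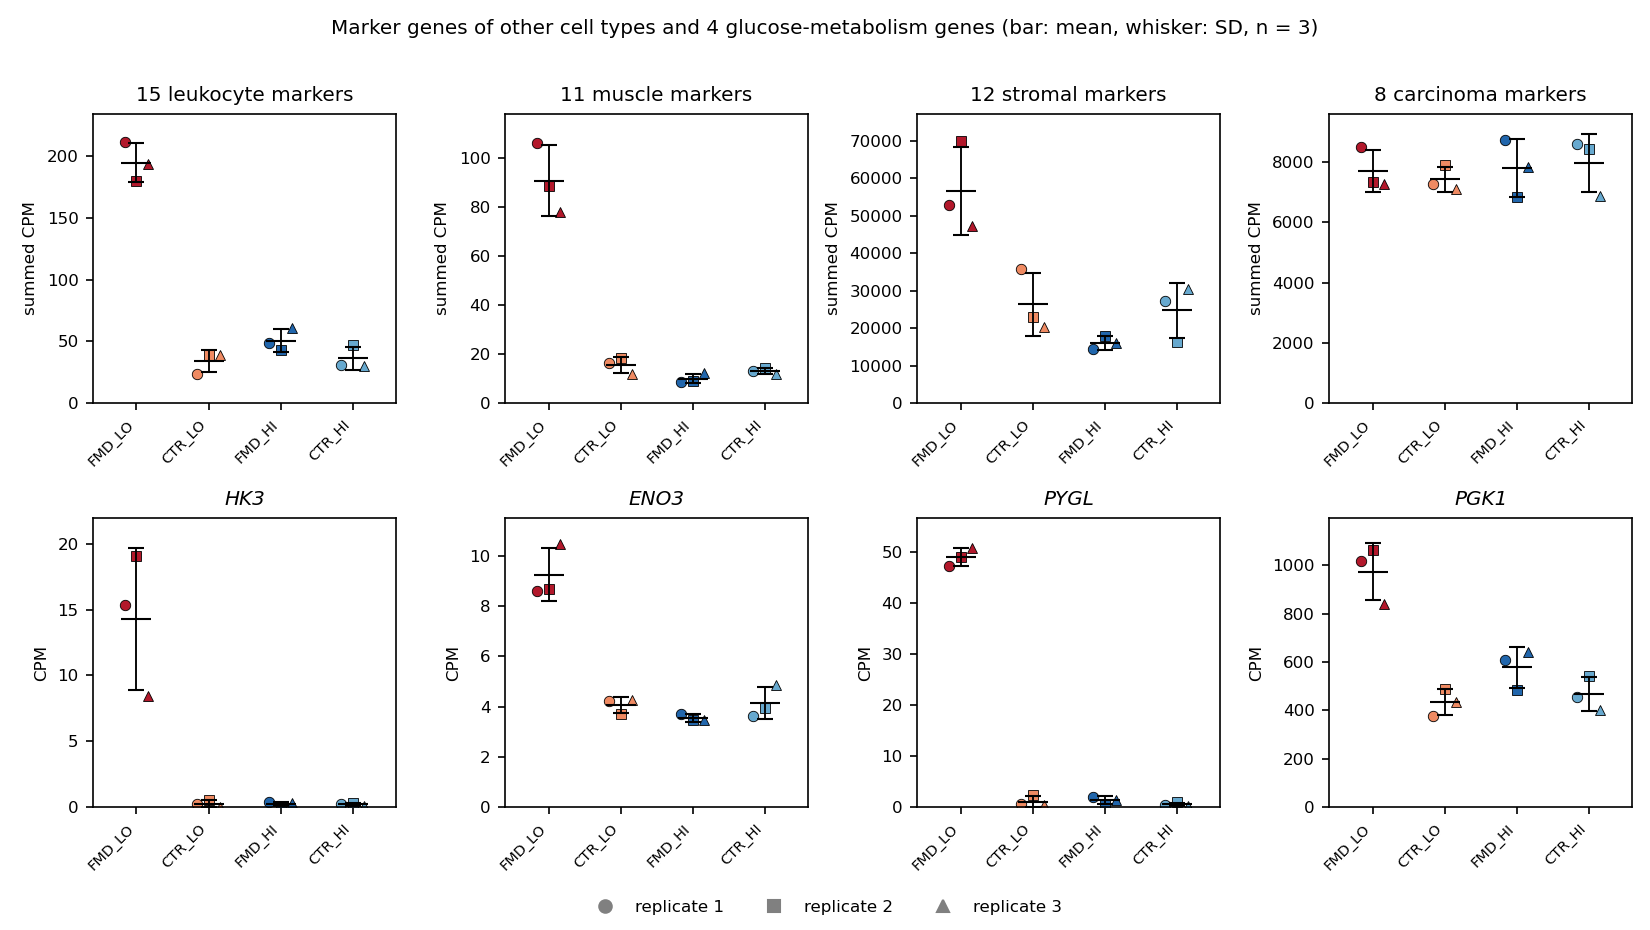
The upper row gives the summed CPM of the leukocyte, muscle, stromal and carcinoma marker lists in each library, and the lower row the CPM of HK3, ENO3, PYGL and PGK1, with the mean as bar and the SD as whisker (n = 3). The leukocyte, muscle and stromal sums are highest in the 3 FMD_LO libraries, where HK3, ENO3, PYGL and PGK1 are also highest, while the carcinoma sums, mostly VIM, overlap between the groups.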

How the data were processed

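SUM159 tumour cells were sorted and sequenced as stranded, polyadenylated RNA, and reads were aligned with STAR to hg38, per the submitters' processing notes; how mouse reads were handled and which STAR version ran are not given in the sources used here. Each library has 1 table of raw gene counts as the authors deposited it, of which column 4 (the reverse strand) was used. The 12 libraries were fitted together with edgeR 4.0.16 (R 4.3.3; quasi-likelihood, robust, TMM, default count filter by group; 8 residual degrees of freedom, biological coefficient of variation 0.190), with 5 contrasts and a Benjamini-Hochberg adjusted p below 0.05 over 15461 genes as the call. Standard errors are the log2 fold change over the root of F and approximate. Alternatives were RLE scaling, no count filter, DESeq2 1.42.0, reads of either strand, only the groups compared, a replicate block, each library left out and, added after the data had been seen, thinning to 17736610 counts. Replicate numbers come from the labels: same-numbered FMD_HI and FMD_LO libraries correlated in their deviations from the group means (0.444, 0.285 and 0.485), so the block applies there; CTR_HI and CTR_LO pairs gave 0.445, 0.522 and 0.0373, and FMD and control libraries did not pair. No replicates agreed within sampling noise. The members and lists were chosen with earlier results of these data known. Genes were named by a rule: every member, library by library if called or among the 3 smallest p of its role in CD24-low cells; up to 4 called genes of each other list and contrast; and up to 3 called markers of at least 10 CPM per list. 1 gene that the rule names is not reported here. CD24, EPCAM, HIF1A and the markers outside this rule were added after their values were seen. Exon lengths are from GENCODE 29 and positions and promoters from RefSeq.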

Additional observations from a re-analysis of the deposited data

Results flagged for a closer look

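The difference between diets differed between CD24-low and CD24-high cells by the interaction test of edgeR in 7 of the glucose-metabolism and hypoxia genes named above, each with the higher value in CD24-low cells. The log2 interaction was 0.859 for PGK1, 1.40 for ENO3, 5.46 for HK3, 1.06 for UGP2, 4.22 for PYGL, 1.17 for P4HA1 and 1.10 for KDM3A. It also passed for markers of other cell types named above, at 4.61 for PTPRC, 3.58 for SPI1 and 1.55 for COL1A1. In 4.13% of all genes tested the interaction passed, 630 of 638 in this direction. The libraries behind these values, FMD_LO, are also those with the highest leukocyte, muscle and stromal marker sums and the lowest totals. The part of the markers, and of what made the totals low, was not tested. PGK1 and ENO3 passed with every library thinned to the smallest total, which evens the counts but cannot part a low total from its group.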

How the results depend on the processing

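Of the 35 members, 7 were called between diets in CD24-low cells, and leaving out 1 library at a time gave 3 to 7 (3 without FMD_LO replicate 1, FMD_LO replicate 2 or FMD_HI replicate 1, and 4 without CTR_LO replicate 1 or 3), with 1562 to 2795 genes against 2533 (1562 and 1662 without FMD_LO replicates 2 and 1, 1577 without CTR_LO replicate 3). PGK1, ENO3 and PGM1 were called in each of these fits. In CD24-high cells 0 members were called under every alternative; the 0 genes became 1 with no count filter, 78 with DESeq2, 1 with the replicate block and 0 to 1 with a library left out. Between FMD_HI and FMD_LO the block gave 8 members and 4201 genes, against 2 and 2163, and leaving out a library 2 to 3 members and 1504 to 2318 genes. Between CTR_HI and CTR_LO nothing was called under any alternative. For the interaction, leaving out a library gave 1 to 2 members and 380 to 767 genes against 638, DESeq2 1127 and the replicate block 1702 genes, with 3 members called under the block (SLC2A3 added). In the comparison between diets, where numbers do not pair the samples, the block gave 8 members and 2867 genes in CD24-low cells, with ENO2 and PFKFB3 added and LDHB lost (adjusted p = 0.0516). LDHB was also lost with RLE scaling, with reads of either strand (0.0506) and after thinning (0.0518), TKT with RLE scaling, and SLC2A1 with only the groups compared (0.0583). Alternatives were run for the 20 members given library by library and not for single values of the other 15. Among those 20, signs turned in CD24-low cells in 2 uncalled values near 0: LDHA (0.00386 without FMD_LO replicate 2, with -0.121 as the lowest when a library was left out) and PGM2 (0.00982 with RLE scaling, 0.00924 with DESeq2, 0.0660, 0.00441 and 0.00468 without CTR_LO replicate 3, FMD_HI replicate 1 and CTR_HI replicate 3, with -0.0743 as the lowest). The cause of these changes was not tested. Thinning every library to the smallest total kept 6 of the 7 calls, and ENO3 rests on the fewest counts among the 5 members that rose.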
